A study of Homo sapiens with 22 samples.

Results

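The MYC and MAX network is a group of transcription factors that share the partner MAX, and it was followed here in 2 human melanoma lines at the level of RNA and of open chromatin at promoters. The 10 members were chosen by gene symbol, namely MYC, MAX, MXD1, MXD3, MXD4, MXI1, MNT, MGA, MLX and MLXIP. All 10 were found among the 33538 genes of the untreated WM989 table and among the 36601 genes of the WM983B and of the treated WM989 tables. WM989 and WM983B are BRAF-mutant melanoma lines, each grown from 1 clone. In both lines the authors called each cell drug-susceptible or primed. In WM989 the primed state carries EGFR, NGFR and AXL, and the study linked it to survival under BRAF and MEK inhibition. The study asked which signals move cells between these states.

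The untreated WM989 data hold 12531 cells of cultures given lineage barcodes, from 8 wells, 4 of replicate r1 and 4 of r2, all belonging to 1 sample. By the methods each culture was divided over 2 wells of the chip, so the 8 wells are repeat loadings of fewer cultures and are counted below as a description. The methods describe mixed cells and sorted EGFR/NGFR-high cells expanded in separate cultures, and the labels do not say which wells hold which. Primed cells made up 6.85% to 79.7% of a well, and the values of the 2 states pooled over wells depend on that sort. The untreated WM983B data hold 1449 cells of 1 library. The treated WM989 data hold 40021 cells of 8 libraries, 2 for each of 4 groups. These groups were an untreated Control, PI3Ki (GDC-0941, an inhibitor of PI3-kinase, 2 µM), TGFB1 (the recombinant cytokine, 5 ng/mL) and TGFBRi (LY2109761, an inhibitor of the TGF-β receptor kinases, 4 µM), each held for 5 days. Both inhibitors came from DMSO stocks while the Control plate received no vehicle, so vehicle and inhibitor cannot be told apart. Each replicate, r1 or r2, was 1 barcoded culture divided over the 4 plates, and nothing says that p-values over these libraries measure more than the spread between such parallel cultures. The labels call 1 library of each treatment Mix and the other Primed, and these names could not be matched to r1 and r2. For ATAC-seq, which reads open chromatin, WM989 cells were sorted into Mix (described in the methods as negative for both markers), EGFR-high, NGFR-high and EGFR/NGFR-high cells, with 3 libraries of each.

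MYC binds E-box DNA as a dimer with MAX and raises genes of ribosome production and growth. MXD1, MXD3, MXD4, MXI1, MNT and MGA also pair with MAX, compete with MYC for it and repress transcription, most of them through the SIN3-HDAC corepressor. MLX is a second hub that pairs with MLXIP, a sensor of glucose metabolites, and with some of the MXD proteins and MNT. MYC is often raised in melanoma, and its protein is stabilised by signals that include the PI3-kinase and MAPK pathways.

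Depth and quality bear on every value below. The treated libraries held 3692 to 6273 cells and 70239657 to 122420544 UMIs (molecule counts), and the WM989 wells held 408 to 3841 cells and 35882876 to 177318308 UMIs. The WM983B library held 102738398 UMIs. Cells of different libraries shared few cell barcodes, 194 of 40021 in the treated data and 19 of 12531 in the untreated WM989 data, and no doublets were removed here. The melanocytic markers MLANA and SOX10 were present in drug-susceptible WM989 cells at 1683 and 130 CPM (UMI counts scaled to an equal total) and were lower in primed cells, at 59.0 and 7.09 CPM. Leukocyte and keratinocyte markers were near 0, while PECAM1 and PDGFRA, known from endothelial cells and fibroblasts, were at 22.8 and 47.3 CPM in primed WM989 cells, and their part in the state results was not tested. The other endothelial and fibroblast markers in primed cells were CDH5 at 0.0052, VWF at 2.47, COL3A1 at 0.17, DCN at 6.19 and LUM at 16.9 CPM, and LUM was at 32.2 CPM in drug-susceptible cells.

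Promoter sequences of 5 members, 1 window each, are printed first because the later results refer to them. They hold the 3 windows with an E-box, 1 of the MXI1 windows with a forkhead match, and MXD1, which rose under PI3Ki. RefSeq windows of 250 bases before to 50 bases after a start on GRCh38.p14 were matched for 9 of the 10 members, 14 windows in all. The letters CACGTG, the palindromic E-box that MYC-MAX dimers bind, were found in 3 of these windows, against 7.26% of all 35116 windows. They lay 238 bases before the start of MXD4, 193 before that of MNT and 50 before that of MLX. The letters GTAAACA or their reverse complement TGTTTAC, a core site of forkhead factors such as FOXO, were found in 2 MXI1 windows, against 3.42% of all windows. These matches begin 151 and 2 bases before the start, and the one at 2 bases runs past the start. Both strands were searched, and no window of the members held both motifs. A match is a description of these letters and not a binding site. The first bases of each window are shown 5′ to 3′ on the gene's strand, up to the first base annotated as exon and no further than the RefSeq start, with motif letters in capitals. That gives 250 bases for MXD4 and MXI1, 206 for MNT, 222 for MLX and 182 for MXD1, so in the last 3 the bases nearest the RefSeq start are not shown, and the distances above count from that start and not from the last printed letter. They lie at chr4:2262110-2262359 (MXD4, minus strand), chr17:2401105-2401310 (MNT, minus), chr17:42566850-42567071 (MLX, plus), chr10:110209981-110210230 (MXI1, plus) and chr2:69914859-69915040 (MXD1, plus), and the MXD1 sequence holds neither motif.
MXD4: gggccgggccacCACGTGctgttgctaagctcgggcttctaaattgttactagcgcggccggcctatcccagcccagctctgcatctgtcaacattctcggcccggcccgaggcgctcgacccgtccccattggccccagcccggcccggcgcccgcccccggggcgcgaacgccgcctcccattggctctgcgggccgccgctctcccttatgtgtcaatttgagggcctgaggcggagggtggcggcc
MNT: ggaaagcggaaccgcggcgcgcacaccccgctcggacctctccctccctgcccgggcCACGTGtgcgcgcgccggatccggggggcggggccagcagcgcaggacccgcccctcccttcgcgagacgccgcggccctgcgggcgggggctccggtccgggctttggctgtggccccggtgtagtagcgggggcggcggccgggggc
MLX: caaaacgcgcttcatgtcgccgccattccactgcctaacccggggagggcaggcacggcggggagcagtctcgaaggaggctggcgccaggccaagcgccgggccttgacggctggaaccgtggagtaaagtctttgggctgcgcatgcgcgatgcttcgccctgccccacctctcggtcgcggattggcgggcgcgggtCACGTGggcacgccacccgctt
MXI1: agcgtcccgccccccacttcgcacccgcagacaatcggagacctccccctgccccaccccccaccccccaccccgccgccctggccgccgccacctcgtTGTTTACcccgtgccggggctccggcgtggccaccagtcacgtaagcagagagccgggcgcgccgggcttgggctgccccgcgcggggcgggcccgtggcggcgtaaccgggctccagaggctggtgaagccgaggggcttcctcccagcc
MXD1: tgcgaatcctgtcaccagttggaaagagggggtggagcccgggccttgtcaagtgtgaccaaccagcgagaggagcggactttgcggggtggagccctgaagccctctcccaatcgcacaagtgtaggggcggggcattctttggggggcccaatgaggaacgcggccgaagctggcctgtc

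The PI3-kinase inhibitor raised 3 of the MAX-binding repressors and MYC was not called. Counts were summed over all cells of a library, scaled to CPM by TMM, and tested with edgeR's quasi-likelihood test with a term for the replicate, at an adjusted p under 0.05. All 10 members passed the filter on low counts. 3 of 10 were called, all higher, against 12.7% of the 18389 genes tested (5.83% higher and 6.83% lower). Summed over a library, fewer cells of a type and less RNA per cell cannot be told apart.

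MXD4 (chr4:2247432-2262109, minus strand on hg38), a repressor linked to cells that leave the cell cycle, changed most. Its TMM-normalised level was 12.2 and 10.5 CPM in Control r1 and r2 and 18.9 and 17.5 CPM in PI3Ki r1 and r2. Both PI3Ki libraries lay above both Control libraries. The rise was 0.68 on the log2 scale (SE 0.09, n = 2 libraries a group, adjusted p = 1.6e-05, edgeR quasi-likelihood test). Its promoter is 1 of the 3 printed above with an E-box.

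MXD1 (chr2:69897688-69942945, plus strand), a repressor induced as cells differentiate, had low levels in every library. They were 4.36 and 3.86 CPM (TMM) in Control and 5.67 and 5.56 CPM in PI3Ki, again without overlap. The log2 rise was 0.45 (SE 0.09, adjusted p = 0.0021, edgeR quasi-likelihood test). This call was lost without Control r2 (log2 0.38) or without PI3Ki r2 (log2 0.42), while MXD4 kept its call without any 1 of the 4 libraries.

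MXI1 (chr10:110207605-110287365, plus strand), a repressor of the same family, moved less. Its levels were 99.98 and 96.8 CPM (TMM) in Control and 114 and 113 CPM in PI3Ki, and the groups did not overlap. The log2 rise of 0.20 (SE 0.06) passed with an adjusted p of 0.032 in edgeR's quasi-likelihood test. Without the replicate term it did not pass (adjusted p = 0.11), nor did it without any 1 of the 4 libraries.

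MYC, the activator of the network, was at 173 and 162 CPM (TMM) in Control and at 179 and 174 CPM in PI3Ki. The PI3Ki libraries were slightly above Control. The log2 difference was 0.08 (SE 0.07, adjusted p = 0.52, edgeR quasi-likelihood test), with a 95% interval of -0.06 to 0.22. MAX (chr14:65006174-65102695, minus strand), the shared partner, had 31.2 and 32.3 CPM in Control and 34.5 and 35.5 CPM in PI3Ki, a log2 difference of 0.14 (adjusted p = 0.15, edgeR). The other 5 members did not pass either. Their log2 differences ran from -0.11 for MLXIP, over -0.05 for MXD3, -0.01 for MNT and 0.03 for MGA, to 0.04 for MLX. The plot of levels by treatment shows all 10 members in the 8 libraries.

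**Figure D1:**
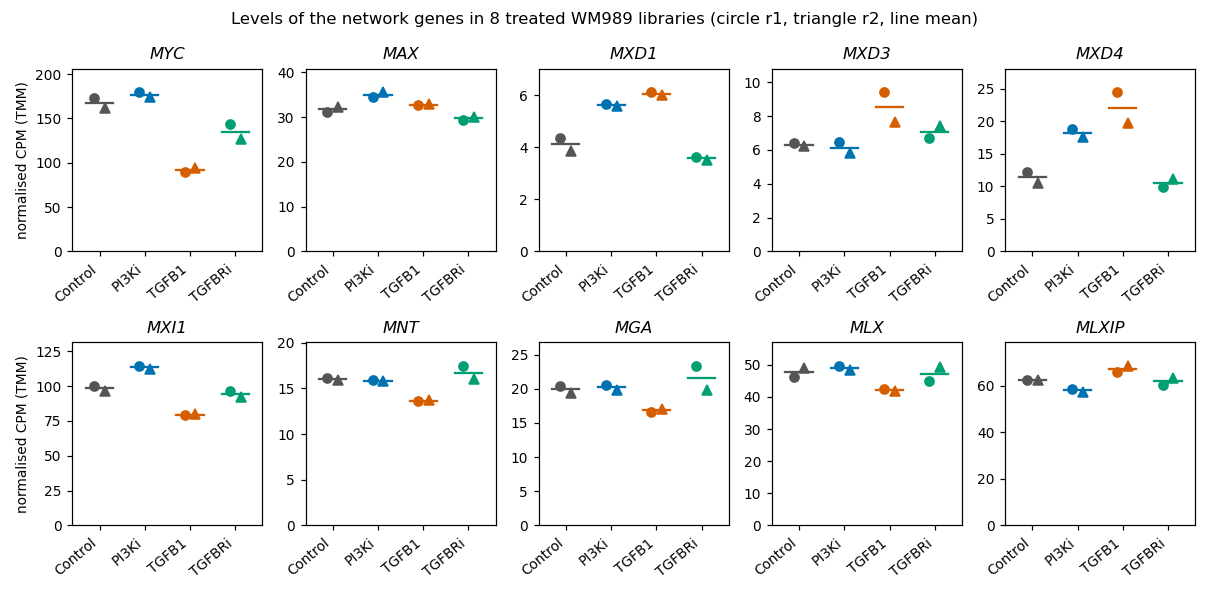
TMM-normalised CPM (linear axes from 0) of each member in the 8 treated WM989 libraries, with r1 as circles, r2 as triangles and the mean of 2 libraries as a line. MXD4 is near 11 CPM in Control and 18 in PI3Ki, while MYC is lowest in TGFB1, at 89.8 and 94.3 CPM.

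State and cell cycle phase moved with the PI3Ki group, and the repressors were therefore read within them. G1 cells made up 43.6% and 44.1% of the PI3Ki libraries and 34.0% and 32.7% of the Control libraries, and primed cells 0.647% and 1.21% against 2.26% and 4.47%. In drug-susceptible cells alone, MXD4 rose by a log2 of 0.78 (SE 0.09, adjusted p = 4.4e-06) and MXD1 by 0.49 (SE 0.10, adjusted p = 0.0013) in edgeR's quasi-likelihood test. That is 2 of 10 members against 12.1% of 17914 genes (5.89% higher and 6.22% lower), with MXI1 at a log2 of 0.19 (adjusted p = 0.055). In G1 cells alone MXD4, MXD1 and MXI1 were called, with log2 rises of 0.62, 0.43 and 0.32, where 1943 of 15452 genes were called (931 higher and 1012 lower). As CPM without TMM, MXD4 was also higher in PI3Ki in the other phases, at 16.4 and 14.2 CPM in S cells against 11.3 and 9.49 in Control, and at 8.95 and 9.49 CPM in G2M cells against 8.01 and 6.84. The share of G1 cells and the result moved together in the whole libraries, and MXD4 differed by 0.68 over all cells and by 0.62 within G1.

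The authors' 13 clusters of the treated cells showed where MXD4 stood. Cluster 6, a drug-susceptible cluster with 73.2% of its cells in G1, held 2239 PI3Ki cells and 168 Control cells. There MXD4 was at 39.6 CPM in Control and 31.7 CPM in PI3Ki (CPM of summed counts without TMM), so it was not higher in PI3Ki inside the cluster that PI3Ki filled. In cluster 0 it was at 12.2 CPM in Control and 14.1 in PI3Ki, in cluster 2 at 9.46 and 16.7, in cluster 5 at 5.06 and 7.09, and in cluster 9 at 9.45 and 14.7. Among the 8 clusters with at least 100 cells of both groups, MXD4 was higher in PI3Ki in 7. The part of cluster make-up in the rise over whole libraries was not tested.

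MXD1 was spread differently over the same clusters. In cluster 5, which has the highest MYC level of the 13, it was at 6.24 CPM in Control (exact 95% Poisson interval 5.05 to 7.63) and at 12.6 CPM in PI3Ki (10.7 to 14.8). In cluster 0 it was at 3.73 CPM in Control and 5.68 in PI3Ki, and in cluster 6 at 3.02 and 4.66. In clusters 7 and 8 its levels in both groups lay between 2.87 and 3.70 CPM. These intervals cover counting error only, and cells of a cluster are not replicates.

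Primed cells under PI3Ki were few, 25 in r1 and 70 in r2, against 94 and 165 in Control. In these cells 0 of 10 members were called by edgeR's quasi-likelihood test, against 1.78% of 10930 genes, and MXI1 alone had an unadjusted p under 0.05. It was at 57.6 and 63.2 CPM (TMM) in Control and at 109.6 and 89.8 CPM in PI3Ki, a log2 difference of 0.64 (adjusted p = 0.094, edgeR). MXD4 was at 56.1 and 43.2 CPM in Control and at 43.2 and 49.0 CPM in PI3Ki, so its groups overlapped, unlike in drug-susceptible cells.

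Genes that work with the network, or are known targets of it, were counted from lists under PI3Ki. Of 35 genes of ribosome production linked to MYC, 0 were called in either direction by edgeR, against 12.7% of all genes, and 0 by DESeq2. In edgeR 3 of the 35 had an unadjusted p under 0.05. The median log2 difference of the 35 genes was 0.04 against 0.003 over all genes. Of 31 genes of metabolism and growth, 1 was higher and 7 were lower, against 5.83% of all genes higher and 6.83% lower. ODC1, the rate-limiting enzyme of polyamine synthesis, rose by a log2 of 0.38 (adjusted p = 0.00054), while LDHA, which makes lactate, fell by 0.87 (adjusted p = 2.9e-08) and SLC2A1, a glucose transporter, fell by 0.72 (adjusted p = 5.9e-07), all by edgeR. The median log2 difference of this list was -0.08, against 0.003 over all genes. LDHA and SLC2A1, the largest falls of the list, both serve glucose use.

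Of 8 genes that MYC is known to repress, 1 was higher and 3 were lower, against 5.83% of all genes higher and 6.83% lower. CDKN2B, an inhibitor of CDK4 and CDK6, rose by a log2 of 0.35, and NDRG1 fell by 1.16 and CDKN1A, the inhibitor known as p21, by 0.95. MLX and MLXIP have 3 listed targets, and 2 of them rose, against the same 5.83% of all genes. TXNIP, an inhibitor of glucose uptake, had 32.1 and 39.5 CPM (TMM) in Control and 70.1 and 61.8 CPM in PI3Ki, a log2 rise of 0.88 (adjusted p = 2.6e-07, edgeR). Its relative ARRDC4 rose by 0.47 (adjusted p = 0.019, where DESeq2 called TXNIP alone), while MLX and MLXIP themselves were not called.

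The RNA of genes whose proteins partner the network was counted next, by edgeR, against 12.7% of all genes called. Of 10 genes of the SIN3-HDAC corepressor 1 was called, the subunit SAP30, with a log2 fall of 0.61, where DESeq2 called 2. Of 12 partners of MGA in the PRC1.6 complex only TFDP1 was lower (-0.24), of 12 genes of MYC protein turnover only AURKA (-0.32), and of 12 MYC cofactors 0 by edgeR or DESeq2, with 0 at an unadjusted p under 0.05. Of 8 genes linked to FOXO factors, which PI3-kinase signalling holds out of the nucleus, ERBB3 was higher (0.57) and BCL6 (-0.43) and FBXO32 (-0.25) were lower. The related members MYCL and MLXIPL, outside the 10, were under 0.4 CPM in every library and were not called. All 6 markers of primed cells fell, 4 of 8 melanocytic markers rose and 1, DCT, fell in the same comparison, and their part in these counts was not tested.

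Under TGFB1, which moved many cells into the primed state, MYC was lower and MXD4 higher. Over all cells 8 of 10 members were called, 3 higher and 5 lower, against 29.0% of genes (16.3% higher and 12.7% lower). This comparison used the same 2 Control libraries as the one for PI3Ki. Primed cells made up 29.1% and 31.3% of the TGFB1 libraries, and G1 cells 44.1% of each.

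MYC (chr8:127735434-127742951, plus strand) was at 89.8 and 94.3 CPM (TMM) in TGFB1, against 173 and 162 CPM in Control. Every TGFB1 library was below every other library. The log2 fall was 0.86 (SE 0.07, adjusted p = 1.7e-09, edgeR quasi-likelihood test). In drug-susceptible cells alone it was at 104 and 109 CPM against 174 and 165, a fall of 0.66 (adjusted p = 1.8e-07, edgeR). In primed cells alone it was at 50.9 and 57.3 CPM against 70.5 and 94.0, a fall of 0.63 (adjusted p = 0.0018, edgeR). MYC was thus lower within each state as well as over all cells. The groups lay in different clusters within the drug-susceptible state too, with 3801 TGFB1 and 115 Control cells in cluster 3 and 234 and 2971 in cluster 0. In CPM without TMM, MYC was at 130 in TGFB1 and 142 in Control in cluster 3, whose counting intervals overlap, and at 156 and 216 in cluster 0. It was lower in TGFB1 in all 8 drug-susceptible clusters with at least 100 cells of both groups. The part of cluster make-up in the fall was not tested.

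MXD4 was at 24.4 and 19.8 CPM (TMM) in TGFB1, the highest levels of the 4 groups. The log2 rise against Control was 0.96 (SE 0.09, adjusted p = 1.4e-08, edgeR quasi-likelihood test). In drug-susceptible cells it was 17.9 and 12.6 CPM against 11.4 and 9.56, a rise of 0.53 (adjusted p = 0.00036, edgeR) that did not pass without TGFB1 r1 (log2 0.32). In primed cells, where MXD4 is high in any treatment, it was at 47.7 and 43.8 CPM against 56.1 and 43.2 in Control, and the groups overlapped.

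MXD1 was at 6.10 and 6.01 CPM (TMM) in TGFB1, a log2 rise of 0.56 (adjusted p = 6.5e-05, edgeR), and rose by 0.59 in drug-susceptible cells. MXD3 (chr5:177301461-177312757, minus strand), the member of the family known for expression in dividing cells, was at 9.40 and 7.64 CPM against 6.39 and 6.21 in Control. Its log2 rise was 0.43 (SE 0.10, adjusted p = 0.0015, edgeR), which did not pass without TGFB1 r1 or in G1 cells alone (0.26). In primed cells alone MXD3 was at 15.2 and 11.96 CPM against 8.34 and 3.998, a rise of 1.24 (adjusted p = 0.0039). The Control values for primed MXD3 rest on 94 and 165 cells and differ from each other by more than the TGFB1 values do.

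MXI1 went the other way from MXD4, with 79.2 and 79.7 CPM (TMM) in TGFB1 and a log2 fall of 0.31 (SE 0.06, adjusted p = 0.00059, edgeR). In drug-susceptible cells alone its difference was -0.10 and was not called. MNT (chr17:2384073-2401104, minus strand), a broadly expressed repressor, had 13.6 and 13.7 CPM against 16.1 and 15.9 in Control, a fall of 0.23 (adjusted p = 0.017, edgeR). MGA (chr15:41621134-41773081, plus strand), a repressor that also joins a Polycomb complex, fell by 0.24 (adjusted p = 0.016), and MLX (chr17:42567072-42573239, plus strand) by 0.18 (adjusted p = 0.045). The falls of MNT, MGA and MLX were lost without Control r1, Control r2 or TGFB1 r1, those of MNT and MLX also without TGFB1 r2, in G1 cells alone and in DESeq2, that of MLX without either PI3Ki library, and those of MGA and MLX without the replicate term. The falls of MXI1, MNT, MGA and MLX were not called in drug-susceptible cells, where 3 of 10 members (MYC, MXD1 and MXD4) were called against 14.9% of genes (8.56% higher and 6.32% lower).

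In primed cells alone, 5 of 10 members were called between TGFB1 and Control, against 13.3% of genes (6.21% higher and 7.09% lower). Beside MYC and MXD3, MXI1 fell by a log2 of 0.44 (adjusted p = 0.040) and MNT by 0.67 (adjusted p = 0.027) by edgeR. MLXIP (chr12:122078756-122147344, plus strand), the glucose-linked partner of MLX, was at 79.9 and 81.4 CPM (TMM) in TGFB1 and at 47.8 and 51.2 CPM in Control. It rose by 0.69 (adjusted p = 0.00079, edgeR), though over all cells its difference was 0.10 and was not called. Of the primed cells, 3254 of TGFB1 lay in cluster 4 and 80 in cluster 10, whereas 248 of Control lay in cluster 10 and 11 in cluster 4, so the primed cells of the 2 groups came from different clusters. By the test of the difference itself, an interaction term in edgeR, the change in primed cells differed from that in drug-susceptible cells in 4 of 10 members under TGFB1 (MXD1, MXD3, MXD4 and MLXIP), against 9.98% of 18502 genes. Under PI3Ki it differed for MXD4 alone, against 1.21% of genes, and under TGFBRi for 0 of 10, against 0.551%, with MYC and MLX at an unadjusted p under 0.05.

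The lists moved with TGFB1 as follows, by edgeR at an adjusted p under 0.05. Of the 35 genes of ribosome production 16 were lower and 0 higher, with a median log2 difference of -0.18, against 12.7% of all genes lower and 16.3% higher. In drug-susceptible cells alone 3 of them were lower, against 6.32% of all genes. Of the 31 genes of metabolism and growth 3 were higher and 13 lower, of the 8 MYC-repressed genes 4 were higher and 1 lower, and all 3 targets of MLX and MLXIP were higher. TXNIP rose by 1.53 on the log2 scale, ARRDC4 by 1.21 and KLF10 by 1.07 (KLF10 is also a target of TGF-β, and it was named after its values were seen). CDKN1A rose by 2.56 and NDRG1 by 1.36, and CDKN2B fell by 0.58. Under PI3Ki, which shares the Control libraries, the 3 values were -0.95, -1.16 and 0.35. Of 6 primed markers 5 rose, and their part was not tested. MYCL was called higher, yet its levels stayed under 0.3 CPM.

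**Figure D2:**
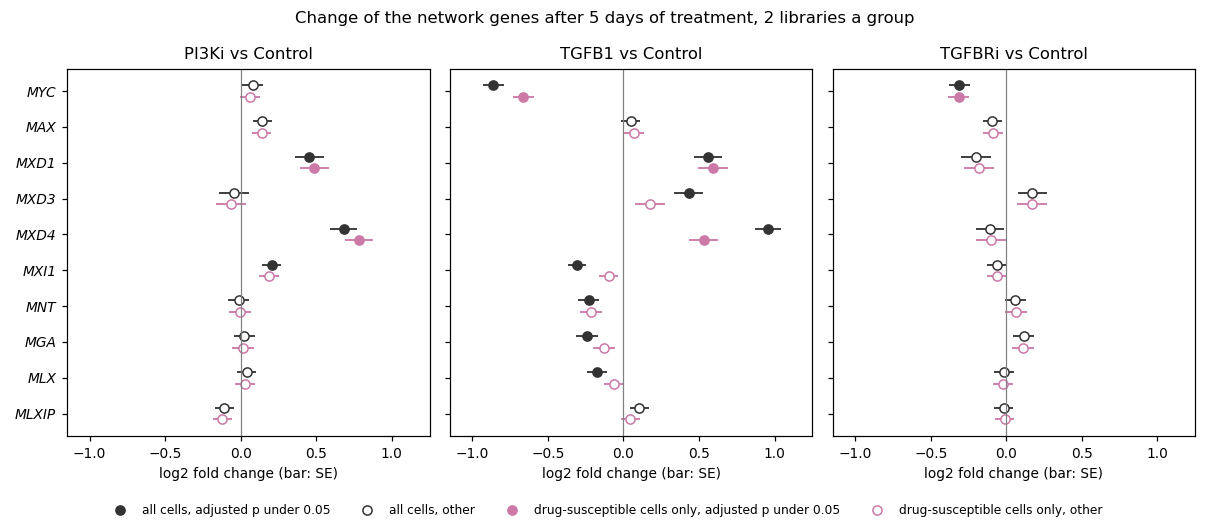
Log2 fold change of each member against the shared Control libraries (horizontal axis) for PI3Ki, TGFB1 and TGFBRi, with bars for the SE and 2 libraries a group. The legend marks all cells and drug-susceptible cells and which values passed an adjusted p under 0.05, and MYC is furthest below 0 under TGFB1, at -0.86 over all cells.

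The TGF-β receptor inhibitor changed 1 member. MYC was at 144 and 127 CPM (TMM), below both Control libraries, and fell by 0.31 on the log2 scale (SE 0.07, adjusted p = 0.013, edgeR quasi-likelihood test). That is 1 of 10 members against 2.53% of genes (1.09% higher and 1.45% lower). In drug-susceptible cells it was again 1 of 10, against 2.81% of genes (1.22% higher and 1.59% lower), with a fall of 0.32 (adjusted p = 0.010). The call was lost without the replicate term, in G1 cells alone (-0.26, adjusted p = 0.13) and without Control r1 (-0.29), Control r2 (-0.33) or TGFBRi r2 (-0.23). MYC therefore stood lower than Control after both TGFB1 and the inhibitor of its receptor, and both comparisons used the same 2 Control libraries. Median UMIs a cell were 14047 in TGFB1 and 13940 in TGFBRi, against 19910 in Control and 18915 in PI3Ki, and the part of depth was not tested. Of the 35 genes of ribosome production 0 were called under TGFBRi by edgeR, against 2.53% of genes, with 0 at an unadjusted p under 0.05. In primed cells MYC was at 106 and 83.5 CPM under TGFBRi against 70.5 and 94.0 in Control, which overlap, and 0 of 10 members were called there by edgeR, against 0.375% of genes.

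Set directly against the other treatments, which spares the Control libraries, PI3Ki differed from TGFB1 in 8 of 10 members, 5 higher and 3 lower, against 33.9% of genes (15.3% higher and 18.7% lower). MYC (log2 0.94, adjusted p = 2.5e-10), MXI1 (0.51), MGA (0.27), MNT (0.22) and MLX (0.22) were higher in PI3Ki, and MXD3 (-0.48), MXD4 (-0.27) and MLXIP (-0.21) were lower, by edgeR. MXD4 and MNT were not called without the replicate term, and MYC, MXI1 and MXD3 were called without each 1 of the 4 libraries in turn while the others were not. In G1 cells alone MXD3 (0.017) and MNT were not called and MXD1 was called lower (-0.33), where 5575 of 15452 genes were called. Against TGFBRi, 5 of 10 members differed, all higher in PI3Ki, against 17.0% of genes (8.25% higher and 8.77% lower). These were MXD4 (0.79, adjusted p = 1.2e-06), MXD1 (0.66, adjusted p = 3.1e-05), MYC (0.39, adjusted p = 0.00031), MXI1 (0.27, adjusted p = 0.0040) and MAX (0.24, adjusted p = 0.011), of which MXI1 and MAX were lost without either PI3Ki library and MAX also in G1 cells alone (0.20). Over all cells MXD4 was ordered TGFBRi and Control, then PI3Ki, then TGFB1, where TGFBRi (9.88 and 11.1 CPM, TMM) and Control overlap. In drug-susceptible cells MXD4 was at 18.7 and 17.2 CPM in PI3Ki and at 17.9 and 12.6 CPM in TGFB1, which overlap.

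Untreated cells gave the levels of the members in the states themselves. In WM989, 2843 cells of clusters 2, 8 and 9 were primed and 9688 drug-susceptible. No test was run between the states, which rest on clusters of these same counts, and a gene was called past a 1.5-fold ratio of CPM. 5 of 10 members were past it, against 37.6% of 13194 genes (22.5% higher and 15.0% lower in primed cells). MYC, MXI1 and MLXIP were lower in primed cells, and MXD4 and MXD1 were higher.

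MYC was at 173 CPM in drug-susceptible and 43.2 CPM in primed cells, a ratio of 0.249 (95% counting interval 0.244 to 0.255). Over the 8 wells its lowest, median and highest levels were 121, 196 and 227 CPM in drug-susceptible cells and 26.0, 52.5 and 93.8 CPM in primed cells. The states did not overlap, and primed cells were lower in 8 of 8 wells. MYC levels also differed between replicates, at 153 and 206 CPM in drug-susceptible cells of r1 and r2.

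MXI1 was at 101 and 33.2 CPM in the 2 states (ratio 0.327, interval 0.319 to 0.336), and MLXIP at 73.2 and 28.4 CPM (ratio 0.388, interval 0.377 to 0.399). Both were lower in primed cells in 8 of 8 wells, with no overlap. For MXI1 the wells ran from 96.8 to 112 CPM in drug-susceptible and from 24.4 to 45.8 CPM in primed cells. For MLXIP they ran from 65.2 to 96.3 CPM and from 23.8 to 42.0 CPM.

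MXD4 was the member most clearly higher in primed cells, at 55.5 CPM against 20.9 (ratio 2.66, interval 2.59 to 2.73). Over wells its lowest, median and highest levels were 13.0, 18.2 and 36.9 CPM in drug-susceptible cells and 44.1, 49.4 and 66.9 CPM in primed cells. The states did not overlap. The replicates differed in drug-susceptible cells, at 25.3 CPM in r1 and 13.8 in r2, with every r1 well above every r2 well, and the log2 ratio of the states was 0.86 to 1.19 over the r1 wells and 1.78 to 1.90 over the r2 wells. MXD1 was at 3.10 and 4.78 CPM (ratio 1.54, interval 1.42 to 1.67), just past the line, and was higher in primed cells in 8 of 8 wells although the ranges over wells overlapped. Its ratio was within 1.5-fold in r1 alone (1.42), in r2 alone (1.49), as a mean over wells (1.36) and as a mean of CPM per cell (1.43). In these settings 4 of 10 members were past the line, but the share of all genes was not counted there, so that number cannot be judged. The pooled MXD1 ratio of 1.54 lay above the ratio of either replicate. MXD1 was higher in r2 than in r1 in both states, and the part of the replicate mix in its pooled call was not tested. The other 5 members stayed within 1.5-fold, with ratios of 0.820 for MLX, 0.860 for MGA, 0.872 for MAX, 0.9503 for MXD3 and 1.04 for MNT. MAX and MLX were nevertheless lower in primed cells in 8 of 8 wells. The replicates differed for MAX, MLX and MGA too. In drug-susceptible cells of r1 and r2 MAX was at 29.9 and 42.8 CPM, MLX at 51.6 and 72.4, and MGA at 15.9 and 23.4. Every r2 well lay above every r1 well there.

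**Figure D3:**
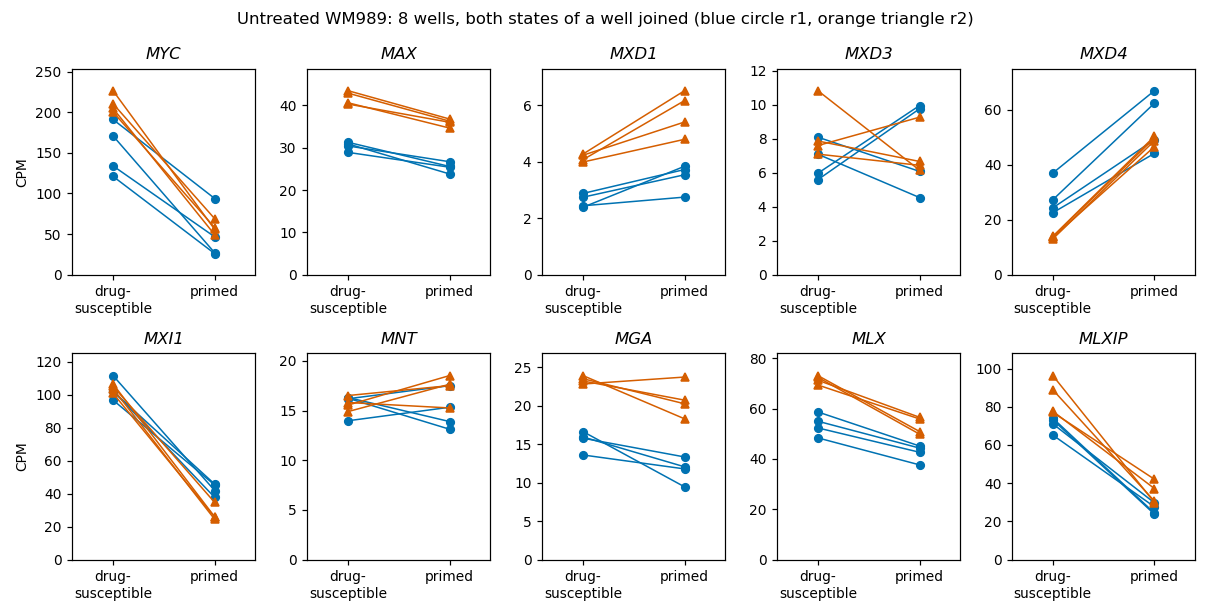
CPM (linear axes) of each member in drug-susceptible and primed cells of the 8 untreated WM989 wells, with the states of a well joined by a line, r1 as blue circles and r2 as orange triangles. MYC, MXI1 and MLXIP fall and MXD4 rises from drug-susceptible to primed in 8 of 8 wells.

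Primed WM989 cells were more often in G1, at 73.7% against 25.5% of drug-susceptible cells, and had a median of 58253 UMIs a cell against 52835. Their median mitochondrial percent was 7.95, against 14.1 in drug-susceptible cells, and its part in the state results was not tested. Within G1 cells the order held for the members above. MYC was at 227 CPM in drug-susceptible and 43.5 CPM in primed G1 cells, MXI1 at 119.7 and 37.8 CPM, MLXIP at 66.4 and 28.0 CPM, and MXD4 at 39.2 and 64.6 CPM. The G1 levels of MXI1 lay above its levels over all phases, 101 and 33.2 CPM, in both states. The gap of MXD4 between the states was smaller in G1, where its drug-susceptible level was higher (39.2 CPM) than in S (17.6 CPM) and G2M (12.3 CPM).

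The level of MXD3 was highest in G2M cells. In untreated WM989 it was at 2.42 CPM in G1, 6.55 in S and 12.5 in G2M cells. In WM983B it was at 2.23, 12.1 and 27.6 CPM, and in the treated WM989 cells at 1.54, 5.58 and 14.6 CPM. The order of the phases was the same in the 3 experiments. MXD4 was highest in G1 in each, at 52.3, 49.4 and 23.9 CPM, against 16.1, 33.0 and 9.37 CPM in G2M. In untreated WM989 MXD1 was at 4.24 CPM in G1, 2.63 in S and 3.84 in G2M cells, and MXI1 was at 77.4, 88.2 and 86.5 CPM. All these levels pool both states. In untreated WM989 primed cells made up 45.9% of G1, 6.62% of S and 13.2% of G2M cells. The pooled order of MXI1, lowest in G1, did not hold within either state, where its G1 level lay above that of all phases together. The differences between the members by phase were not tested. These phases are the authors' calls per cell from other genes' RNA.

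In WM983B, 731 cells were primed and 718 drug-susceptible, and 1 of 10 members was past 1.5-fold against 11.1% of 13769 genes (7.77% higher and 3.28% lower). That member was MYC, at 90.5 CPM in drug-susceptible and 59.0 CPM in primed cells (ratio 0.652, interval 0.623 to 0.683), the same direction as in WM989. MXI1 (92.6 and 72.02 CPM, ratio 0.778) and MLXIP (70.0 and 58.8 CPM, ratio 0.841) were lower, and MXD3 (13.4 and 17.5 CPM, ratio 1.30) and MXD4 (35.47 and 39.995 CPM, ratio 1.13) were higher. The interval of the MXD1 ratio, 0.953 to 1.402, includes no difference. G1 cells made up 29.0% of drug-susceptible and 37.8% of primed WM983B cells, a smaller gap than in WM989, and the difference between the lines was not tested. The primed label covered 50.4% of WM983B cells. From drug-susceptible to primed cells NT5E went from 40.9 to 85.6 CPM and MLANA from 59.8 to 2.40. SOX10 went only from 208 to 192 CPM and EGFR from 2.21 to 3.13, and S100B rose from 771 to 1039. Whether the label marks a like state in both lines was not tested.

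Across the 11 clusters of untreated WM989, MYC ran from 362 CPM in cluster 6 and 360 in cluster 10, which do not differ beyond counting error, through 259 in cluster 5, 193 in cluster 0, 167 in cluster 4, 124 in cluster 3 and 115 in cluster 7. It was at 81.8 CPM in cluster 1 and 78.2 in cluster 8, whose intervals overlap, and at 37.8 in cluster 9 and 35.8 in cluster 2, whose intervals overlap too. The primed clusters 8, 9 and 2 thus took the last places, with drug-susceptible cluster 1 beside cluster 8. MXD4 was highest in primed cluster 2 at 66.3 CPM and next in cluster 4 at 61.4 CPM, a drug-susceptible cluster with 73.3% of cells in G1 and with MYC at 167 CPM. It was lowest in cluster 6 at 9.65 CPM.

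The other members had their own orders over these clusters. MXI1 was highest in cluster 10 (153 CPM) and lowest in cluster 9 (18.9 CPM), with the primed clusters 8, 2 and 9 last. MLXIP was highest in clusters 6 (92.4 CPM) and 7 (89.1 CPM), whose counting intervals overlap. It was lowest in clusters 9 (27.5 CPM) and 2 (25.9 CPM), whose intervals overlap too. MXD1 was highest in clusters 6 (6.97 CPM) and 10 (5.73 CPM), the clusters with the most MYC, and then in primed cluster 2 (5.28 CPM), where the counting intervals of 6 and 10 overlap, as do those of 10 and 2. MXD3 was highest in primed cluster 9 (17.4 CPM) and was between 2.33 and 2.78 CPM, with overlapping intervals, in clusters 10, 5, 2, 4 and 0, so the primed clusters did not share its level.

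**Figure D4:**
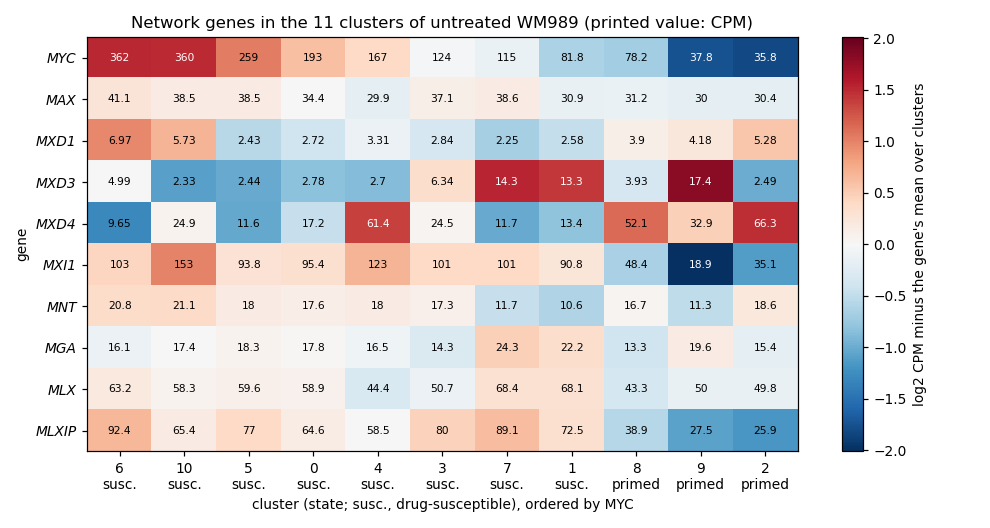
Levels of the members in the 11 clusters of untreated WM989 cells, with clusters in columns ordered by MYC and their state given, genes in rows, the CPM printed in each box and the colour giving log2 CPM minus the mean of the gene over clusters. MYC falls from 362 to 35.8 CPM along the columns, while MXD4 is high in clusters 2 and 4.

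In the 13 clusters of the treated cells MYC was highest in cluster 5 at 259 CPM. The primed clusters differed, with MYC at 92.3 CPM in cluster 10 and at 49.8 CPM in cluster 4, the cluster that TGFB1 cells filled. MXD4 was at 43.2 CPM in both, and next in cluster 6 at 32.6 CPM. MLXIP separated the 2 primed clusters in the other direction, at 75.9 CPM in cluster 4 and 50.04 CPM in cluster 10, and MXI1 was at 41.3 and 65.8 CPM.

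The genes most like MYC over the 11 untreated clusters, by Pearson's r of log2(CPM + 1) over the 7021 genes that reached 20 CPM in some cluster, were RIPK4 (0.955), PPP2R5A (0.941), WDR55 (0.938), SLC7A6OS (0.932) and C12orf45 (0.931). Those most like MXD4, the member with the smallest adjusted p under PI3Ki, were PDLIM2 (0.949), NREP (0.949), HEXDC (0.945), HCN2 (0.945) and OCEL1 (0.944). The clusters share libraries and differ in phase and depth. Over the 8 treated libraries and 6044 genes the closest to MYC were TXLNG (0.993), NOLC1 (0.993), IDH1 (0.990), TNS1 (0.990) and WDFY1 (0.988), and to MXD4 MSRB2 (0.989), C5orf38 (0.986), GORASP2 (0.983), SNF8 (0.982) and MARCKSL1 (0.980). No gene was among the 5 of MYC or of MXD4 in both sets, and the 8 libraries share the split between TGFB1 and the rest.

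Open chromatin at the promoters was read as the fold enrichment over local background that the peak caller gave to the highest peak within 500 bases of an annotated start. All 10 members had such a peak in all 12 libraries, which held 213412 to 271153 peaks each. For MYC the enrichment ran from 70.0 to 88.7, for MXD1 from 134 to 191, for MXD4 from 88.3 to 132, for MLXIP from 31.6 to 48.9 and for MLX from 9.82 to 23.0.

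Between EGFR/NGFR-high and Mix cells, libraries of 2 of 10 members did not overlap, against 14.6% of 14774 promoters (11.7% higher and 2.94% lower). MNT, whose promoter above carries an E-box, had an enrichment of 108, 112 and 105 in Mix and of 136, 117 and 114 in EGFR/NGFR-high cells. MGA had 32.3, 27.8 and 30.0 in Mix and 23.2, 22.7 and 27.3 in EGFR/NGFR-high cells. Each has a two-sided exact permutation p of 0.1, the smallest that 3 libraries against 3 can give. Enrichments were not scaled further between libraries. The first EGFR/NGFR-high library held the most peaks, 271153, and had the highest value of its sort for every member but MGA. MYC was at 75.39 ± 1.246 in Mix and 77.8 ± 9.42 in EGFR/NGFR-high cells (mean ± SD, n = 3), with overlap, and MXD4 at 96.3 ± 7.09 and 110.1 ± 19.9, also with overlap. The RNA of MYC and MXD4 differed between states without such a split at their promoter peaks, in cells sorted by another rule than the states above.

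The single-marker sorts shared the Mix libraries. In NGFR-high cells 4 of 10 members lay wholly above Mix, against 23.5% of 14741 promoters (2.85% lower and 26.4% either way), namely MXD1 (179 ± 10.7 against 156 ± 10.4), MXI1 (66.3 ± 4.26 against 60.5 ± 0.762), MNT (124 ± 6.44 against 108 ± 3.59) and MLX (17.1 ± 5.25 against 12.1 ± 0.751), as mean ± SD of 3 libraries. In EGFR-high cells 1 of 10 was apart, MXI1, which was lower (54.0 ± 1.97), against 16.2% of 14601 promoters (3.82% higher and 12.4% lower). The highest MXI1 peak lay at another start in 2 of the 3 Mix libraries, however. At 1 start read in every library, MXI1 was at 51.1, 60.8 and 58.1 in Mix and at 52.5, 56.3 and 53.4 in EGFR-high cells, which overlap, and at 67.2, 61.7 and 70.05 in NGFR-high cells, which stayed above Mix. Read in that way, MXD1, MNT and MLX also stayed above Mix in NGFR-high cells, and MNT and MGA stayed apart in EGFR/NGFR-high cells.

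**Figure D5:**
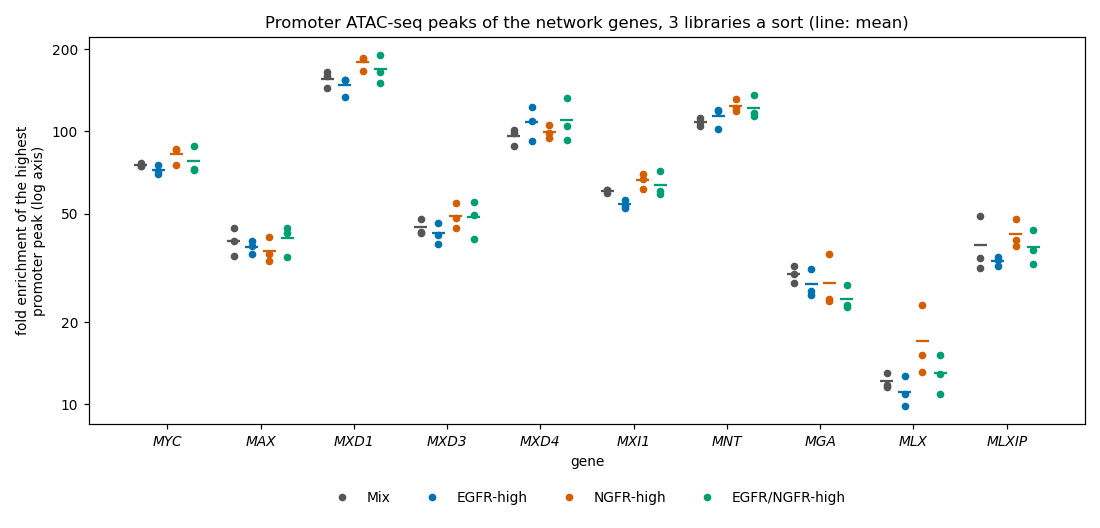
Fold enrichment (log axis) of the highest promoter ATAC-seq peak of each member (horizontal axis) in 12 WM989 libraries, 3 a sort, with the mean as a line. The sorts lie close together within each member, with MNT above and MGA below the Mix libraries in EGFR/NGFR-high cells.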

How the data were processed

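The members and gene lists were chosen with earlier results of these data known. Single-cell libraries were 10x 3′ kits. The count matrices that the authors deposited hold UMIs of each gene in each cell, from Cell Ranger (version not given in the sources used here) on hg38, after filtering cells on genes and mitochondrial percent in Seurat. Their deposited metadata give each cell's replicate, cluster, state, phase and mitochondrial percent, and were used as they stand. For ATAC-seq the authors aligned with Bowtie2 2.3.4.1 and SAMtools 1.1 (submitters' processing notes) and called peaks per library with MACS2 2.1.1.20160309. The deposited peak lists give fold enrichment as a ratio over local background and −log10 of the q-value.

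Counts were summed per library, state, cluster or phase. For the treated libraries edgeR 4.0.16 was used under R 4.3.3 (filterByExpr, TMM, quasi-likelihood test, two-sided, Benjamini-Hochberg adjustment over all genes tested), with terms for treatment and replicate and 3 residual degrees of freedom. The SE is the log2 fold change divided by the square root of F. The difference between states was tested as an interaction term. The replicate term follows the parallel cultures, each divided over the treatment plates. The r2 minus r1 deviations of the 4 groups correlated over 7840 genes with r of 0.23 to 0.66. DESeq2 1.42.0 was an alternative, and the scripts were tested on simulated data. Cells are not replicates, so untreated states were compared as CPM ratios of genes with at least 1 CPM in a state, with exact 95% intervals that cover counting error only. Promoter enrichments were compared by exact permutation. Sums, intervals and figures were made in Python 3.11.15 (numpy 2.4.6, pandas 2.3.3, scipy 1.17.1, matplotlib 3.10.9). Gene positions are from GENCODE 44 and promoter sequences from RefSeq (GRCh38.p14). All members were named. From each list up to 2 genes with the largest rise and 2 with the largest fall under PI3Ki were named, and the 5 genes most like MYC and MXD4. Which wells of untreated WM989 were sorted is not in the labels.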

Additional observations from a re-analysis of the deposited data

Results flagged for a closer look

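For 5 values of the members, the change against Control differed between primed and drug-susceptible cells of the same libraries by a test of that difference, the interaction term of an edgeR quasi-likelihood fit. Under PI3Ki this held for MXD4, whose log2 change was lower in primed cells (a difference of -0.80, SE 0.23, adjusted p = 0.046), against 1.21% of 18502 genes called. MXD4 was at 56.1 and 43.2 CPM (TMM) in primed Control cells and at 43.2 and 49.0 CPM in primed PI3Ki cells, which number 25 and 70.

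Under TGFB1, against 9.98% of genes called, the changes of MXD1 (-1.04, SE 0.32, adjusted p = 0.017) and MXD4 (-0.55, SE 0.15, adjusted p = 0.0041) were lower in primed than in drug-susceptible cells, by edgeR. Those of MXD3 (1.19, SE 0.33, adjusted p = 0.0063) and MLXIP (0.73, SE 0.13, adjusted p = 2.1e-06) were higher. MXD1 in primed cells was at 11.4 and 8.80 CPM (TMM) in Control and at 6.59 and 7.08 CPM in TGFB1, whereas in drug-susceptible cells it was higher in TGFB1. Primed TGFB1 cells lay mostly in cluster 4 and primed Control cells in cluster 10, and the part of this in the 4 values was not tested. Under TGFBRi 0 members were called by this edgeR term, against 0.551% of genes, and 2 had an unadjusted p under 0.05.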

How the results depend on the processing

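Leaving out 1 library at a time gave 1 to 3 members called for PI3Ki against Control (3 over all cells, 2 in drug-susceptible cells, and the same range in both), 4 to 8 for PI3Ki against TGFB1, 3 to 6 for PI3Ki against TGFBRi, 4 to 8 for TGFB1 against Control (2 to 4 in drug-susceptible cells) and 0 to 1 for TGFBRi against Control. The lowest counts came without Control r2 or PI3Ki r2 for PI3Ki against Control and without PI3Ki r1 or r2 for PI3Ki against TGFB1 or TGFBRi, and in each the lone library of a group is assumed to vary like the others. Promoter peaks without 1 replicate gave 3 to 5 members apart from Mix, where 2 libraries against 2 overlap less often. The share of all promoters was not counted for 2 against 2, so these counts cannot be judged. The number of genes called over the whole table moved with the library left out too. In each comparison the loss that left the fewest genes was among those that left the fewest members. No doublet removal was run.

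Without the replicate block, 2 members were called for PI3Ki against Control and 0 for TGFBRi against Control, over all cells and in drug-susceptible cells alike. Over the whole table the count fell from 2328 to 649 genes for PI3Ki (drug-susceptible 2170 to 570), from 466 to 40 for TGFBRi (503 to 47), from 3131 to 1281 for PI3Ki against TGFBRi and from 2665 to 1189 for TGFB1 in drug-susceptible cells. With no filter on low counts TGFBRi gave 748 genes. The block left the promoter count at 2, as did reading 1 start in every library, which was chosen after seeing the data. The share of all promoters was not counted in either setting.

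In G1 cells alone 5 members were called for TGFB1 and 0 for TGFBRi, against 5021 and 148 of 15452 genes, and MXD3 turned from lower to 0.017 between PI3Ki and TGFB1. Primed cells alone, chosen after seeing the data and fewer, gave 0 members for PI3Ki, 5 for TGFB1 and 0 for TGFBRi, and turned the log2 difference of MXD4 to -0.021 under PI3Ki and -0.081 under TGFB1, of MXD1 to -0.52 under TGFB1 and of MYC to 0.15 under TGFBRi. In WM983B a lower fold line called 3 members (MYC, MXD3 and MXI1) and a 2-fold line 0, against 3449 and 584 of 13769 genes. Of the single values of members under all alternatives, 1179 were labelled the same, 70 lost and 10 gained a call, 16 moved and 5 reversed. For the edgeR and DESeq2 fits the same means an unchanged call, and an uncalled value may have changed sign. For promoter peaks and WM989 state ratios it means a shift within the SD over libraries or wells, whatever the call. For WM983B it means a ratio within the main counting interval.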
